A study of Mus musculus with 6 samples.

Results

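Iron uptake, storage and recycling genes were followed in tibial articular cartilage and subchondral bone of mice lacking Frzb, the gene of a secreted WNT antagonist. The set holds 10 genes, namely Tfrc, Trf, Slc40a1, Slc11a1, Slc11a2, Hfe, Hmox1, Steap3, Ireb2 and Fth1. A probe set, the group of short oligonucleotides with which the array reads a transcript, was counted for a gene when the array annotation gave that symbol alone. By this rule 9 of the 10 genes were measured, with 18 probe sets, among 13817 genes measured in all. The only probe set of Trf, the gene of transferrin, is shared with Srprb, so no value is given for Trf.

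RNA of 6 male mice on the C57Bl/6J strain, 6 weeks old, had been hybridised to Affymetrix mouse genome arrays, 1 knee joint per array. The Frzb-/- group comprised the mice numbered 14 and 17, and the wild-type group the mice numbered 6-1, 8-1 and 9-1. Mouse 6 also carries the Frzb-/- label and is shown apart. One mouse with this label was later re-genotyped as heterozygous and left out of the study's tests. The study describes it as grouping with the wild-type mice, and neither the labels nor the study's text states its number. The study's tabulated log2 fold changes of Frzb (-3.606) and Olfm4 (-4.248) equal those of mice 14 and 17 against wild-type mice here. Mouse 6 was thus the mouse left out. The Frzb-/- allele is a germline deletion back-crossed to C57Bl/6J, so every tissue of these mice lacked the gene, and nothing in the labels says whether wild-type mice were littermates.

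The dissected piece also held trabecular bone with its marrow and the upper growth plate. Values are log2 expression values from robust multi-array averaging (RMA), in which a step of 1 is a doubling. Tests are limma's moderated test, two-sided, with Benjamini-Hochberg adjustment over 30618 probe sets. A probe set was called higher or lower where the adjusted p was under 0.01 and the log2 fold change went beyond 1 either way. Median values per array lay between 7.32 and 7.45.

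The targeted gene was read by a pair of probe sets. At 1416658_at, Frzb was 7.02 and 6.42 in Frzb-/- mice 14 and 17 and 6.93 in mouse 6, against 10.02, 10.79 and 10.16 in wild-type mice. At 1448424_at it was 5.22 and 4.92 in Frzb-/- mice and 5.34 in mouse 6, against 8.12, 8.96 and 8.08 in wild-type mice. Mouse 6 was thus at the level of the Frzb-/- mice for Frzb itself, although the study describes the mouse it left out as heterozygous. The reason was not tested. Where these probe sets lie relative to the deleted part is not given in the sources used here. The labelled tissue was present on all arrays, with Col2a1 of cartilage at 14.70 and 14.69 in Frzb-/- mice and 14.56 to 14.74 in wild-type mice, and Acp5 of osteoclasts at 13.67 and 13.52 in Frzb-/- mice and 13.41 to 13.61 in wild-type mice.

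Iron travels in blood bound to transferrin and enters cells through the transferrin receptor, which is most abundant on erythroid precursors building heme and on dividing cells. In the marrow, macrophages engulf spent red cells, open the heme ring and return the iron to plasma through ferroportin, while surplus iron is held in ferritin. Iron regulatory proteins bind hairpins in several of these mRNAs and set their stability or translation by the iron content of the cell.

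Across the 18 probe sets, Tfrc fell and Steap3 rose in Frzb-/- mice, each at 1 probe set, and the other 16 probe sets were not called. Thus 1 of 18 was called higher, against 2.34% of all probe sets, and 1 of 18 was called lower, against 5.09% of all probe sets. With an adjusted p under 0.05 and no fold limit, 3 probe sets were higher, against 11.7% of all, and 5 were lower, against 14.8% of all, and these 8 belonged to 6 genes. Both Frzb-/- arrays lay above all wild-type arrays at 5 probe sets, where 27.5% of all probe sets did so, and below them at 8, where 28.1% of all did so. The median log2 fold change was -0.23 over the 18 probe sets and 0.02 over all probe sets. At the brightest probe set of each gene, the one with the highest mean over the 6 arrays, 6 genes were lower and 3 higher, with a median of -0.31 against 0.04 over all genes.

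**Figure D1:**
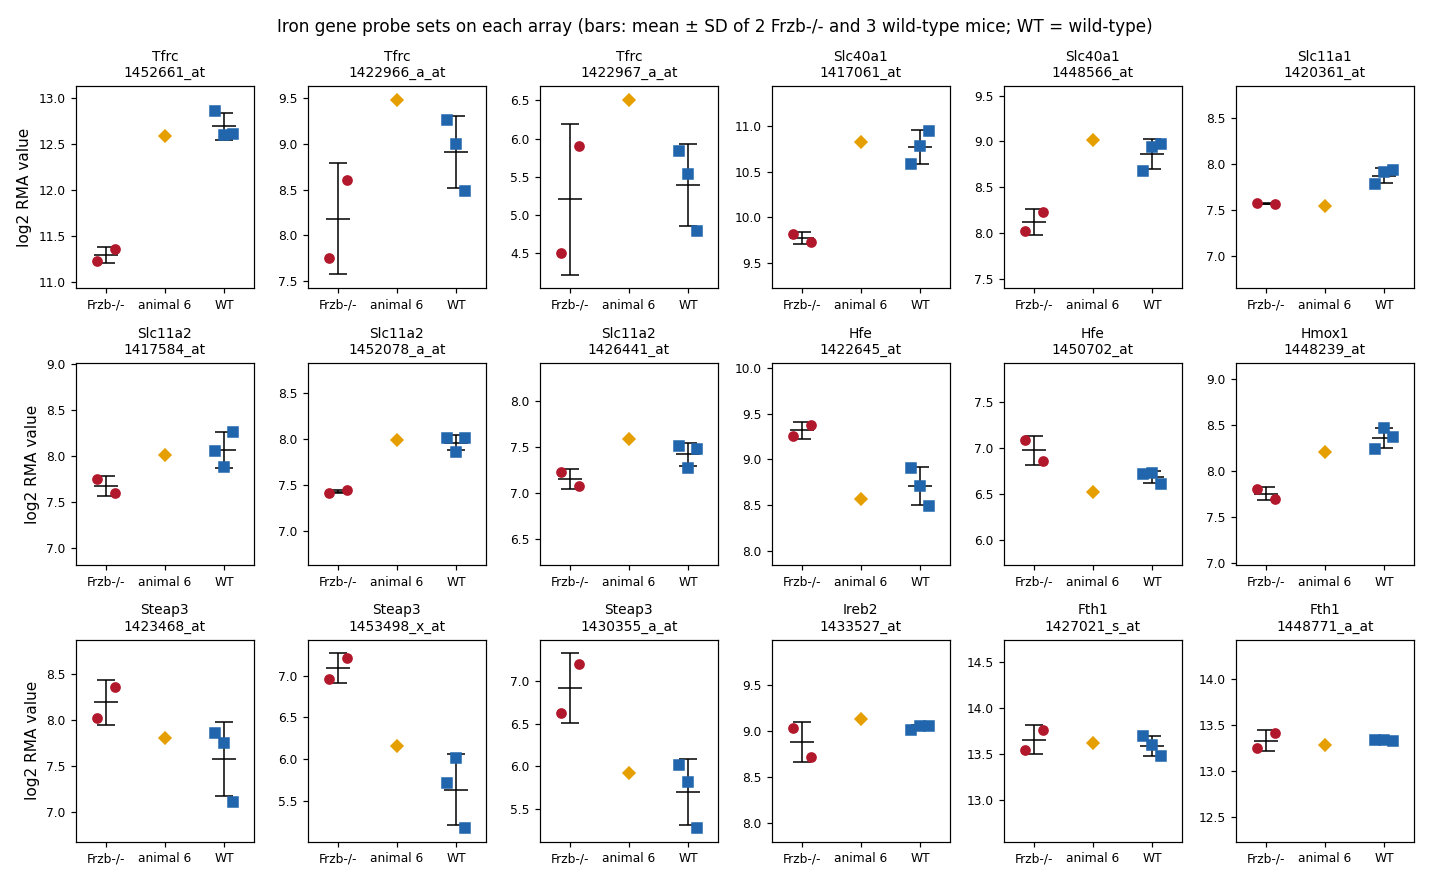
Log2 RMA value (vertical axis, each panel with its own range) of the 18 probe sets in Frzb-/- mice (red circles, n = 2), in mouse 6, labelled Frzb-/- (orange diamond), and in wild-type mice (blue squares, n = 3); bars give the mean ± SD. The Frzb-/- values lie below all wild-type values at 8 probe sets, above them at 5 and among them at 5, and for Tfrc at 1452661_at the nearest mice of the 2 groups are 1.25 apart.

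Tfrc, the transferrin receptor that brings iron-loaded transferrin into the cell, showed the largest fall in the set. At 1452661_at it was 11.23 and 11.36 in Frzb-/- mice, 12.59 in mouse 6, and 12.86, 12.60 and 12.61 in wild-type mice. Both Frzb-/- mice were low and none came near a wild-type mouse, while mouse 6 lay 0.10 below the wild-type mean. The Frzb-/- mean was 11.29 ± 0.09 and the wild-type mean 12.69 ± 0.14 (SD, n = 2 and 3), a log2 fold change of -1.40 with a standard error of 0.13, or 2.64-fold lower, and limma gave an adjusted p of 0.00123. In bulk tissue, fewer cells of a type and less RNA per cell cannot be told apart.

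The other 2 probe sets of Tfrc did not pass. At 1422966_a_at the values were 7.76 and 8.61 in Frzb-/- mice, 9.47 in mouse 6 and 9.26, 9.00 and 8.48 in wild-type mice. Mouse 17 lay above wild-type mouse 9-1 there, so the groups overlapped, and limma gave a log2 fold change of -0.73 ± 0.31 (SE) with an adjusted p of 0.126. At 1422967_a_at the values were 4.51 and 5.90 in Frzb-/- mice, 6.51 in mouse 6 and 5.83, 5.54 and 4.79 in wild-type mice. Here 1 Frzb-/- mouse was the lowest of all and the other above every wild-type mouse, with a log2 fold change of -0.18 ± 0.44 (SE) and an adjusted p of 0.793 by limma. The 3 probe sets of Tfrc thus disagreed in size, and 1422967_a_at was among the 5 of 18 probe sets whose mean lay in the dimmer part of the array.

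The start of Tfrc is shown because it is the member with the strongest fall. RefSeq (GRCm38.p6) places 2 start sites there, and the stretch below, on the plus strand at chr16:32608896-32608925, holds TGACGT, the core letters of a cAMP response element, in capitals. Counting from the first transcribed base as 0, the first capital lies at 13 from one start site and at -213 from the other.
Tfrc: gtgcggaaggaagTGACGTagatccagagg
The core TGACGT was sought on both strands after the sequence had been seen, and 7.51% of the 32851 RefSeq promoter windows, each 250 bases before to 50 after a start site, hold it.

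The genes whose values over the 6 arrays were most like those of Tfrc at 1452661_at were Ibtk (Pearson's r = 0.998, log2 fold change -0.91), Eloc (r = 0.998, -0.38) and Stom (r = 0.998, -0.99). All 3 were low in the Frzb-/- mice and near the wild-type level in mouse 6. The arrays of mice 14 and 17 stand apart from the other 4 for Tfrc, and 1994 of 13816 other genes had an r above 0.9 with it, so the likeness rests mainly on that split.

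Steap3, the endosomal reductase that turns the iron released from transferrin into its ferrous form, was higher in Frzb-/- mice at all 3 probe sets. At 1453498_x_at, where it rose, the values were 6.96 and 7.21 in Frzb-/- mice, 6.16 in mouse 6 and 5.71, 6.02 and 5.18 in wild-type mice. Both Frzb-/- mice were above every wild-type mouse, and mouse 6 lay between the groups. The log2 fold change was 1.45 ± 0.25 (SE), or 2.73-fold higher, with an adjusted p of 0.00686 by limma. This is a dim probe set of the class marked _x, in which some oligonucleotides may also match other transcripts.

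At the other probe sets of Steap3 the difference ran the same way without passing. At 1430355_a_at the values were 6.62 and 7.20 in Frzb-/- mice, 5.92 in mouse 6 and 6.02, 5.82 and 5.28 in wild-type mice, with a log2 fold change of 1.21 ± 0.26 (SE) and an adjusted p of 0.0164 by limma. At 1423468_at, its brightest, the values were 8.02 and 8.36 in Frzb-/- mice, 7.80 in mouse 6 and 7.85, 7.75 and 7.11 in wild-type mice. The nearest mice of the groups were 0.16 apart at that probe set, and the log2 fold change of 0.62 ± 0.24 (SE) had an adjusted p of 0.104 by limma. Wild-type mouse 9-1 was the lowest wild-type mouse at all 3 probe sets, and Tfrc and Steap3, which act in the same endosome, differed in opposite directions.

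Slc11a2, known as DMT1, is the transporter that moves ferrous iron out of the endosome into the cytosol, and also takes up dietary iron in the gut. At 1452078_a_at it was 7.42 and 7.44 in Frzb-/- mice, 7.99 in mouse 6 and 8.01, 7.86 and 8.01 in wild-type mice. The log2 fold change was -0.53 ± 0.12 (SE) with an adjusted p of 0.0175 by limma, which misses both limits. At 1417584_at the values were 7.75 and 7.59 in Frzb-/- mice, 8.01 in mouse 6 and 8.05, 7.88 and 8.26 in wild-type mice, a log2 fold change of -0.39 ± 0.15 (SE) with an adjusted p of 0.0999 by limma. At 1426441_at they were 7.23 and 7.08 in Frzb-/- mice, 7.59 in mouse 6 and 7.51, 7.28 and 7.48 in wild-type mice, a log2 fold change of -0.27 ± 0.13 (SE) with an adjusted p of 0.178 by limma. Both Frzb-/- mice were below all wild-type mice at each of the 3 probe sets, and none was called.

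Hfe, the membrane protein that binds the transferrin receptor and whose loss causes hereditary iron overload, stood above wild-type without passing. At 1422645_at it was 9.25 and 9.38 in Frzb-/- mice, 8.57 in mouse 6 and 8.91, 8.72 and 8.50 in wild-type mice. Both Frzb-/- mice were above the wild-type mice, mouse 6 was within the wild-type range, and limma gave a log2 fold change of 0.61 ± 0.15 (SE) with an adjusted p of 0.0278. At 1450702_at the values were 7.09 and 6.86 in Frzb-/- mice, 6.51 in mouse 6 and 6.72, 6.72 and 6.61 in wild-type mice, a log2 fold change of 0.29 ± 0.13 (SE) with an adjusted p of 0.142 by limma. Neither probe set was called, although the groups did not overlap at either.

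The promoter of Hfe is shown because, among the 11 RefSeq windows found for 6 of the 10 genes, it was the only one with the letters of an antioxidant response element, a motif bound by NRF2 upstream of many iron and heme genes. Slc40a1, Slc11a2, Hmox1 and Trf had no window and were not searched. The letters TGACNNNGC, sought on both strands, occur in 12.4% of all windows. The stretch shown lies on the minus strand at chr13:23710903-23710932. The match within it, in capitals, has its first base at -67 counted as above and also contains TGACTCA, a motif of AP-1.
Hfe: cacagcaatccTGACTCAGCagtggctcca
The loop of an iron-responsive element, CAGTGN on the sense strand of the first 50 transcribed bases, occurs in 7.08% of all windows and was found in 1 window of the set, of Steap3. Such a search cannot find hairpins further along an mRNA, so a window without a match does not show that the gene lacks one. These matches of letters are descriptions and not binding sites.

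Slc40a1, or ferroportin, the only known exporter of cellular iron and a defining gene of iron-recycling macrophages, came closest to the fold limit without passing it. At 1417061_at it was 9.82 and 9.73 in Frzb-/- mice, 10.82 in mouse 6 and 10.58, 10.78 and 10.95 in wild-type mice. Both Frzb-/- mice were at least 0.75 below every wild-type mouse, and mouse 6 lay within the wild-type range. The means were 9.78 ± 0.07 in Frzb-/- mice and 10.77 ± 0.19 in wild-type mice (SD, n = 2 and 3), a log2 fold change of -0.99 ± 0.14 (SE), or 1.99-fold lower, with an adjusted p of 0.00405 by limma. At 1448566_at the values were 8.02 and 8.23 in Frzb-/- mice, 9.02 in mouse 6 and 8.68, 8.94 and 8.97 in wild-type mice, a log2 fold change of -0.74 ± 0.14 (SE) with an adjusted p of 0.0114 by limma. The groups did not overlap at either probe set, and the 95% interval at 1417061_at, from -1.33 to -0.65, spans the fold limit.

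Hmox1, heme oxygenase 1, which opens the heme ring and frees its iron, was 7.81 and 7.70 in Frzb-/- mice, 8.21 in mouse 6 and 8.24, 8.47 and 8.38 in wild-type mice. The Frzb-/- mice were below all others, and the log2 fold change of -0.61 ± 0.13 (SE) had an adjusted p of 0.0140 by limma, so the probe set was not called.

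Slc11a1, the transporter that pumps metal ions out of the phagosomes of macrophages and neutrophils, was 7.57 and 7.56 in Frzb-/- mice, 7.54 in mouse 6 and 7.78, 7.91 and 7.93 in wild-type mice. Mouse 6 lay with the Frzb-/- mice here, below every wild-type mouse. The log2 fold change was -0.31 ± 0.12 (SE) with an adjusted p of 0.0974 by limma.

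Fth1, the ferritin heavy chain that oxidises and stores iron, varied little. At 1427021_s_at it was 13.55 and 13.77 in Frzb-/- mice (SD 0.16), 13.62 in mouse 6 and 13.69, 13.60 and 13.47 in wild-type mice (SD 0.11). At 1448771_a_at it was 13.24 and 13.41 in Frzb-/- mice, 13.28 in mouse 6 and 13.33, 13.33 and 13.33 in wild-type mice. The groups overlapped at both, with log2 fold changes of 0.07 (95% interval -0.25 to 0.38, adjusted p 0.740 by limma) and -0.01 (95% interval -0.28 to 0.27, adjusted p 0.973 by limma).

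Ireb2, iron regulatory protein 2, which binds the hairpins of the ferritin and transferrin receptor mRNAs, was 9.03 and 8.72 in Frzb-/- mice, 9.13 in mouse 6 and 9.02, 9.06 and 9.06 in wild-type mice. Mouse 14 stood within the wild-type range and mouse 17 below it, with a log2 fold change of -0.17 ± 0.13 (SE) and an adjusted p of 0.402 by limma. Its 95% interval ran from -0.48 to 0.15.

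**Figure D2:**
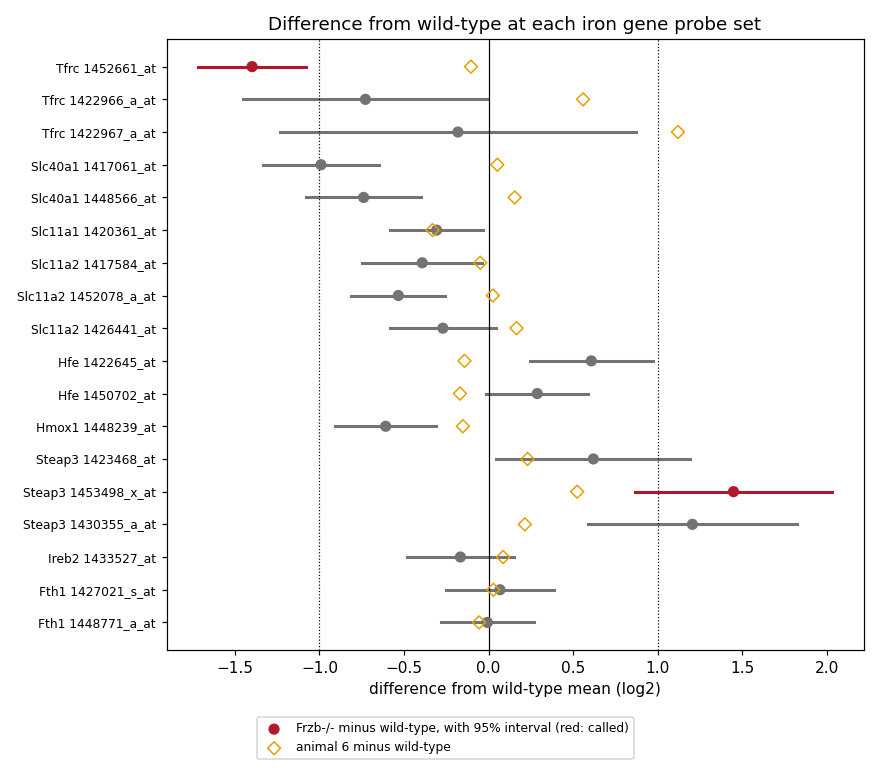
Difference from the wild-type mean on the log2 scale (horizontal axis) at each of the 18 probe sets, for Frzb-/- mice with the 95% interval of limma (filled circles, red where called) and for mouse 6 (open diamonds); dotted lines mark the fold limit of 1 either way. The interval of Tfrc at 1452661_at runs from -1.72 to -1.08 and that of Steap3 at 1453498_x_at from 0.87 to 2.03, while both intervals of Fth1 contain 0.

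Mouse 6 was set against the wild-type mice in a fit in which its single array took its spread from the other groups. Over the 18 probe sets it differed by at most 1.12 on the log2 scale, for Tfrc at 1422967_a_at. At the pair of Frzb probe sets the same fit gave -3.39 and -3.05 for mouse 6 and called neither. A lack of calls in this fit therefore does not show that mouse 6 equals wild-type. None of its 18 probe sets was called by limma, nor was any on the whole array (0% of 30618), and the smallest adjusted p in the set was 0.703. At an unadjusted p under 0.05 there were 0 of 18 probe sets and 2197 on the whole array. At 7 of 18 probe sets it lay within the wild-type range, as at 42.9% of all probe sets, and at 16 it was nearer the wild-type mean than the Frzb-/- mean, the exceptions being Slc11a1 and Fth1 at 1448771_a_at. It was nearer the wild-type mean at all 8 probe sets with an adjusted p under 0.05 between Frzb-/- and wild-type mice, as at 92.8% of all such probe sets.

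Around the set, 71 other iron and heme genes of 80 listed were measured, taken at the brightest probe set of each. In Frzb-/- mice 2 of them were called higher, against 3.03% of all genes, and 14 lower, against 6.02% of all genes, with a median log2 fold change of -0.07. Of the 14, 7 were enzymes of heme synthesis, and the others were spread over 3 lists.

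In heme synthesis, 7 of 8 measured genes were called lower, with a median log2 fold change of -1.51. Alas2, the erythroid enzyme of its first step, was 9.86 and 9.97 in Frzb-/- mice, 12.51 in mouse 6 and 12.26, 12.11 and 12.62 in wild-type mice, a fall of 5.34-fold (adjusted p 0.000966 by limma). Cpox fell by 2.16 and Alad by 1.73 on the log2 scale. Alas1, which makes the same step in all other cells, was the exception at -0.25 with an adjusted p of 0.350 by limma. The mean of the 8 genes was 9.56 and 9.42 in Frzb-/- mice, 11.09 in mouse 6 and 10.84 to 11.12 in wild-type mice.

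Of 26 measured genes of iron transport and storage, 5 were called lower and 2 higher, with a median log2 fold change of 0.04. Slc25a37, mitoferrin 1, which carries iron into the mitochondria of erythroid cells, was 10.20 and 9.70 in Frzb-/- mice, 12.46 in mouse 6 and 12.42, 12.31 and 12.72 in wild-type mice, 5.79-fold lower in Frzb-/- mice. Lcn2 and Ltf, iron-sequestering proteins of neutrophil granules, had log2 fold changes of -2.91 and -2.68. The other calls, named after their values were seen, were Abcb10 (-2.12), a mitochondrial transporter that stabilises mitoferrin 1, and Slc39a8 (-1.06), a metal importer.

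The 2 genes called higher, also named after their values were seen, were receptors. Scara5, a receptor for ferritin, was 10.25 and 10.54 in Frzb-/- mice, 8.72 in mouse 6 and 8.68, 8.64 and 8.21 in wild-type mice, 3.68-fold higher in Frzb-/- mice with an adjusted p of 0.00127 by limma. Lrp1, a receptor for hemopexin-bound heme and many other ligands, had a log2 fold change of 1.08 with an adjusted p of 0.00276 by limma. Tfr2, the second transferrin receptor, stood at -0.63 (adjusted p 0.0240 by limma) and Cp, the ferroxidase ceruloplasmin, at 0.27 (adjusted p 0.240 by limma), neither called. Ftl1, the ferritin light chain, had no probe set of its own.

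Of 13 measured regulators of iron metabolism none was called, and their median log2 fold change was 0.21. Spic (-0.90, adjusted p 0.0095 by limma) and Zfp36 (-0.85, adjusted p 0.00571 by limma) missed the fold limit alone. Both were named after their values were seen. Aco1, iron regulatory protein 1, had a log2 fold change of 0.59 with an adjusted p of 0.0280 by limma, and Hamp, the gene of the hormone hepcidin made mainly by liver, had 0.05 with an adjusted p of 0.802 by limma. Blvrb, a biliverdin reductase abundant in red cells, was the only call, at -1.92, among 12 genes of heme capture, transport and breakdown, which had a median of -0.07. Glrx5, a mitochondrial glutaredoxin of iron-sulfur cluster assembly, was likewise the only call, at -1.10, among the 12 measured genes of that list, whose median was -0.11.

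**Figure D3:**
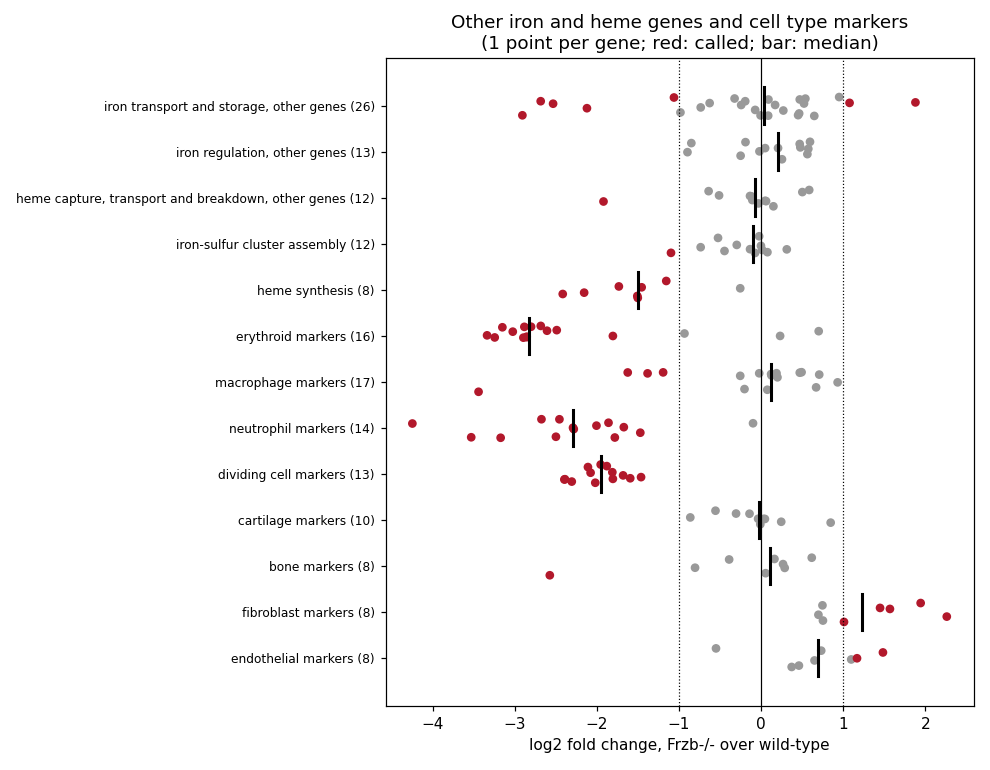
Log2 fold change, Frzb-/- over wild-type (horizontal axis), of each gene of the 5 iron and heme lists and of 8 lists of cell type markers, 1 point per gene at its brightest probe set (red where called, bar at the list's median, number of measured genes in brackets). Heme synthesis (7 of 8 called lower) sits with the erythroid (13 of 16), neutrophil (13 of 14) and dividing cell (13 of 13) markers, while the regulators of iron (0 of 13) and cartilage markers (0 of 10) straddle 0.

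Markers of the cell types known for these genes also differed between the groups. Of 16 measured erythroid markers 13 were called lower, and the mean over the list was 8.49 and 8.02 in Frzb-/- mice, 10.67 in mouse 6 and 10.29 to 10.71 in wild-type mice. Slc4a1, the anion exchanger of red cells, was 6.98-fold lower in Frzb-/- mice, whereas Aqp1, a water channel also made by endothelium, had a log2 fold change of 0.70 (adjusted p 0.0125 by limma). All 13 dividing cell markers were called lower, Mki67 by 2.11 and Pcna by 1.46 on the log2 scale, with list means of 8.86 and 8.19 in Frzb-/- mice, 10.67 in mouse 6 and 10.38 to 10.68 in wild-type mice. Neutrophil markers were lower at 13 of 14, among them S100a9 (-1.67) and S100a8 (-1.47), with list means of 10.11 and 9.68 in Frzb-/- mice, 12.00 in mouse 6 and 11.86 to 12.39 in wild-type mice. The part of these shifts in the values of Tfrc, Slc11a2 and Steap3 was not tested.

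Macrophage markers, which bear on Slc40a1 and Hmox1 and, beside the neutrophil markers, on Slc11a1, were less uniform. Of 17 measured, 4 were called lower, with a median log2 fold change of 0.12, and list means were 9.05 and 8.95 in Frzb-/- mice, 9.07 in mouse 6 and 9.06 to 9.38 in wild-type mice. Csf1r, a receptor of the lineage, stood at 0.19 (adjusted p 0.356 by limma), and the 4 calls were Cd5l (-3.44), Vcam1 (-1.63), Mpeg1 (-1.38) and Lyz2 (-1.19). The other 13 were not called, among them Axl (0.93), C1qa (0.71), Mertk (0.13) and Mrc1 (-0.02), and all of these but Lyz2 and Csf1r were named after their values were seen. The part of this list, or of the erythroid, dividing cell and neutrophil lists, in the values of Slc40a1, Hmox1 and Slc11a1 was not tested.

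Fibroblast markers were called higher at 5 of 8 genes with a median log2 fold change of 1.23, with Dcn at 0.75 and Col3a1 at 0.70 below the fold limit. Endothelial markers were called higher at 2 of 8, among them Cd34 (1.17), while Vwf stood at -0.55. Cartilage markers were called at 0 of 10 genes by limma (Col2a1 0.03, Comp 0.24), and they ranged from -0.86 for Matn3 to 0.85 for Prg4. Bone markers were called at 1 of 8, lower, with Col1a1 at 0.27 and Acp5 at 0.05. That call was Sost (-2.57), the gene of sclerostin made by osteocytes. Among bone markers not called, Phex stood at -0.81 (adjusted p 0.0209 by limma), Dmp1 at -0.39 and Alpl at 0.62 (adjusted p 0.0234 by limma). Sost, Phex, Dmp1, Alpl, Matn3 and Prg4 were named after their values were seen. The part of these shifts in the values of Hfe and Steap3, the members that were higher, was not tested.

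**Figure D4:**
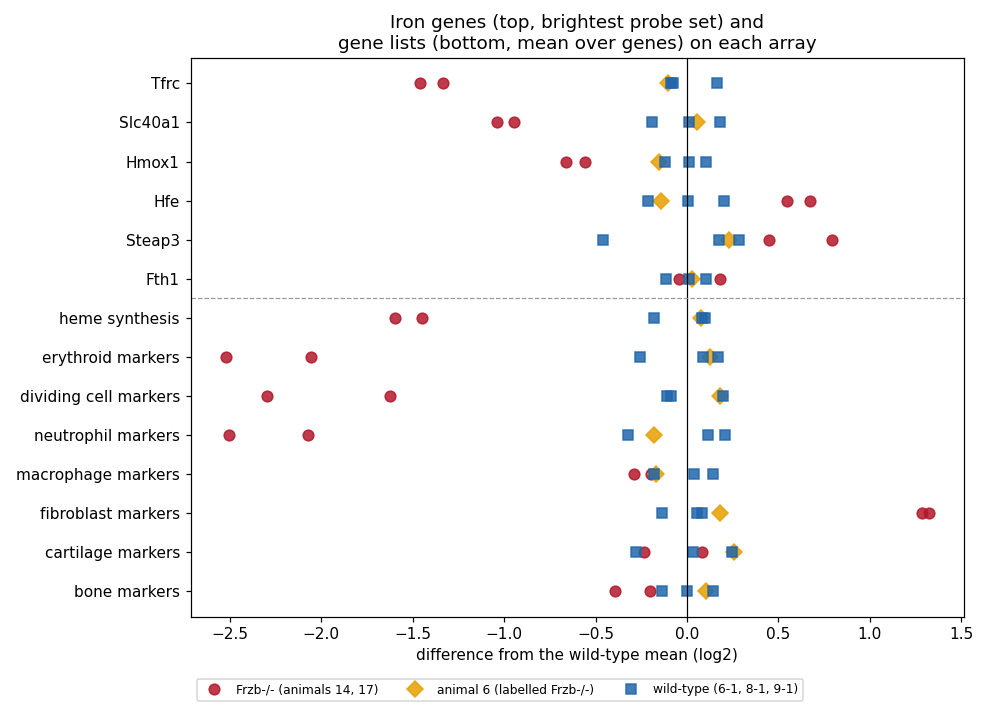
Difference from the wild-type mean on the log2 scale (horizontal axis) on each array, for 6 genes of the set at their brightest probe set (above the dashed line) and for the mean of 8 gene lists (below it); red circles are Frzb-/- mice, orange diamonds mouse 6 and blue squares wild-type mice. The erythroid mean differs from wild-type by -2.06 and -2.52 in Frzb-/- mice and by 0.12 in mouse 6. In Frzb-/- mice Tfrc, Slc40a1 and Hmox1 lie below the wild-type values and Hfe and Steap3 above. All list means but those of fibroblast and cartilage markers lie below as well. For macrophage and bone markers this holds for the means only, as their median log2 fold changes are 0.12 and 0.11. Mouse 17 has the lower erythroid mean and mouse 14 the lower Tfrc value.

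Some of these calls were lost or gained when 1 mouse was left out, while the directions held. Tfrc at 1452661_at kept its direction in every fit that left out 1 mouse, with log2 fold changes from -1.46 to -1.32, but without mouse 17 its adjusted p by limma was 0.0104 and the call was lost. Steap3 at 1453498_x_at lost its call without wild-type mouse 6-1, wild-type mouse 8-1, mouse 14 or mouse 17, in fits with log2 fold changes between 1.32 and 1.64, and kept it at 1.22 without wild-type mouse 9-1. Slc40a1 at 1417061_at was called lower without wild-type mouse 6-1, at -1.09 with an adjusted p of 0.00678 by limma. With all 3 mice labelled Frzb-/- in the group, limma called 0 of 30618 probe sets on the whole array, so the 0 of 18 here is nothing particular to these genes. That group includes mouse 6, which the study left out of its tests. Of the 18, 5 had an unadjusted p under 0.05, as had 3534 on the whole array, and Tfrc at 1452661_at stood at -0.97 with an adjusted p of 0.428 and Steap3 at 1453498_x_at at 1.14 with an adjusted p of 0.428. The 71 other iron and heme genes likewise had 0 calls with that group. Without mouse 17 they had 0 higher and 5 lower, where the whole array had 97 higher and 335 lower, against 717 and 1558 with both Frzb-/- mice.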

How the data were processed

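RNA of tibial cartilage and subchondral bone from 6 mice was read on 1 array each. The deposited values are on the log2 scale: per the labels, the authors computed them by RMA with affy 1.20.0, which corrects background, normalizes by quantiles and summarizes each probe set. According to the methods, control and absent probe sets were removed first. Detection calls were not used here, and arrays have no depth, so precision rests on the number of mice. Mice are separate animals, 1 joint each.

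Probe sets with several genes (677) or none in the annotation (4851) were left out of gene results. Fits used limma 3.58.1 (lmFit, eBayes) in R 4.3.3 on 2 Frzb-/- and 3 wild-type arrays, and figures matplotlib 3.10.9 in Python 3.11.15. Fits were tested on simulated arrays with 100 probe sets shifted by 1.5 on the log2 scale and 100 by 2.5. The call rule recovered 57 and 76 of these, respectively, with 1 false call, so probe sets not called may still differ. All other simulated probe sets were unshifted, whereas the real fit had 3592 higher and 4532 lower at an adjusted p under 0.05 by limma. The adjustment was thus stricter in the simulation, and its counts do not give the rates of the real fit. Genes of lists were taken at their brightest probe set. The genes named by rule were all members, the 3 largest changes called in each iron list and Ftl1, Tfr2, Aco1, Hamp, Cp and Alas2. The rule also took the 2 brightest wild-type genes of each marker list. It took the 3 genes most like a member called at its brightest probe set as well. Further genes of the lists, among them Scara5, Lrp1 and Alas1, were named after their values were seen. Members and lists were chosen with earlier results of these data known. Mice 14 and 17 were taken as the Frzb-/- group by a rule given with the set. Alternatives were all 3 labelled mice, mouse 6 as its own group, leaving out each mouse, cyclic loess, equal array medians, bright probe sets, other moderation, other thresholds and averaging the probe sets of a gene.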

Additional observations from a re-analysis of the deposited data

How the results depend on the processing

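In the set, 1 probe set was called higher and 1 lower. Counts higher and lower were 0 and 0 with all 3 labelled mice and 0 and 0 with no moderation, 2 settings that called 0 of all 30618 probe sets. They were 3 and 5 at an adjusted p under 0.05 with no fold limit, 2 and 1 at that p with the fold limit, and 0 and 1 among bright probe sets, a filter that removes the called probe set of Steap3. With 1 mouse left out, they ranged from 0 to 1 higher and from 0 to 2 lower. Without moderation, limma's ordinary fit had 9835 of 30618 probe sets at an unadjusted p under 0.05, and with all 3 labelled mice 3534. Of the 71 other iron and heme genes, 2 higher and 14 lower became 0 and 0 with all 3 labelled mice or with no moderation, and 9 and 24 at an adjusted p under 0.05 with no fold limit. They became 1 and 14 with averaged probe sets, and with 1 mouse left out 0 to 2 higher and 5 to 14 lower. The lowest counts, 0 higher and 5 lower, came without mouse 17. Cyclic loess, equal array medians, trended or robust moderation, and mouse 6 as its own group, which adds no spread of its own, left the counts of the set at 1 and 1.

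Among the 18 probe sets, directions turned only at probe sets far from the threshold. Tfrc at 1422967_a_at was 0.25 with all 3 labelled mice and ranged from -0.88 to 0.51 with 1 mouse left out. Fth1 at 1427021_s_at ranged from -0.043 to 0.18 with 1 mouse left out, and Fth1 at 1448771_a_at from -0.089 to 0.075, and it was 0.042 with equal array medians. The cause was not tested. No paired analysis was made, because the mice are separate animals and the labels state no pairing.

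With 2 Frzb-/- arrays, limma's spread leans on that of all probe sets. Values of different probe sets are not comparable as levels, saturation of bright ones such as Fth1 was not tested, and the annotation's age was not checked.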
